A study of Homo sapiens with 27 samples.

Results

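Laminin chains and nidogens, the proteins that build the laminin network of basement membranes, were followed across 9 conditions of MCF10A cells. They are 9 genes taken by symbol from the 36536 genes of the count table: the α chains LAMA3, LAMA4 and LAMA5, the β chains LAMB1, LAMB2 and LAMB3, the γ chain LAMC1, and the nidogens NID1 and NID2. Each of the 9 had a single row in the table. A filter on low counts kept 8 of them for testing; NID2 did not pass it and is given as counts only.

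Laminins are secreted trimers of an α, a β and a γ chain. LAMA3 and LAMB3 are chains of the anchoring laminin of epithelia, which is held by the integrin of ITGA6 and ITGB4 in hemidesmosomes, whereas trimers of LAMA5 with LAMB1 or LAMB2 and LAMC1 form the network of most epithelial basement membranes. LAMA4 is best known from vessels, muscle and fat, and the nidogens bind the LAMC1 chain and link laminin to collagen IV.

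MCF10A is an established, non-tumorigenic human mammary epithelial line. Cells had been grown with serum, hydrocortisone, cholera toxin, insulin and 20 ng/ml epidermal growth factor (EGF), reseeded on wells coated with collagen I, and starved for 18 h. They then received fresh medium with EGF, oncostatin M (OSM, an interleukin-6 family cytokine), transforming growth factor beta (TGFB), a pair of these or all 3, each at 10 ng/ml, for 24 h. Controls had phosphate-buffered saline (PBS) for 24 h, and T0 cells were taken at 0 h, so that every group shares the earlier growth in EGF, the collagen coating and the starvation. Each of the 9 groups had 3 libraries of polyadenylated RNA. The labels do not say whether these came from separate cultures, so p-values measure only the spread between these libraries, which may be technical.

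Library totals ran from 30.1 to 52.9 M counts (median 39.5 M). Levels are counts per 1 M counts of the library (CPM). Fold changes come from a fit whose library sizes carry TMM scaling factors, which ranged from 0.867 to 1.12, so they are not the exact quotients of mean CPM. Without these factors the median log2 fold change of all tested genes against PBS moved from 0.00 to -0.32 for OSM+TGFB and for all 3 ligands. It moved from -0.04 to -0.25 for EGF+TGFB, from 0.00 to -0.16 for OSM and from -0.05 to -0.15 for EGF+OSM. The move was from -0.01 to -0.07 for TGFB and from -0.072 to -0.085 for EGF. Over all members and comparisons, 15 values changed sign without the factors. Among them was LAMB1 with OSM+TGFB against PBS, which also lost its call. Of the values that kept their sign, 7 lost a call and 9 gained one. Without the factors, the share of calls that were higher went from 52.9% to 37.8% for OSM, from 55.7% to 41.9% for TGFB, from 49.1% to 36.6% for EGF+TGFB, from 51.9% to 28.1% for OSM+TGFB and from 50.7% to 32.7% for all 3 ligands. In every library the basal mammary markers KRT5, KRT14, KRT17, TP63 and ITGB4 were present, with KRT5 at 3118 to 9967 CPM. Of markers of other cell types, PGR never exceeded 1 count and COL3A1 never exceeded 2, whereas GATA3 was at 9.24 to 30.6 CPM, DCN at 7.53 to 107 CPM and CD68 at 22.5 to 43.9 CPM. In bulk RNA, fewer cells with a transcript and less of it per cell cannot be told apart.

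LAMA3 and LAMB3, the α and β chains of the anchoring laminin, rose in all 7 ligand groups, and most where TGFB was combined with EGF. LAMB2 and NID1 fell in all 7. LAMA5 fell in the 4 groups that held EGF, LAMB1 fell in 3 of those 4 and with TGFB alone, and LAMC1 fell with EGF and EGF+OSM and rose in the 4 groups that held TGFB. LAMA4 was near the detection limit.

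**Figure D1:**
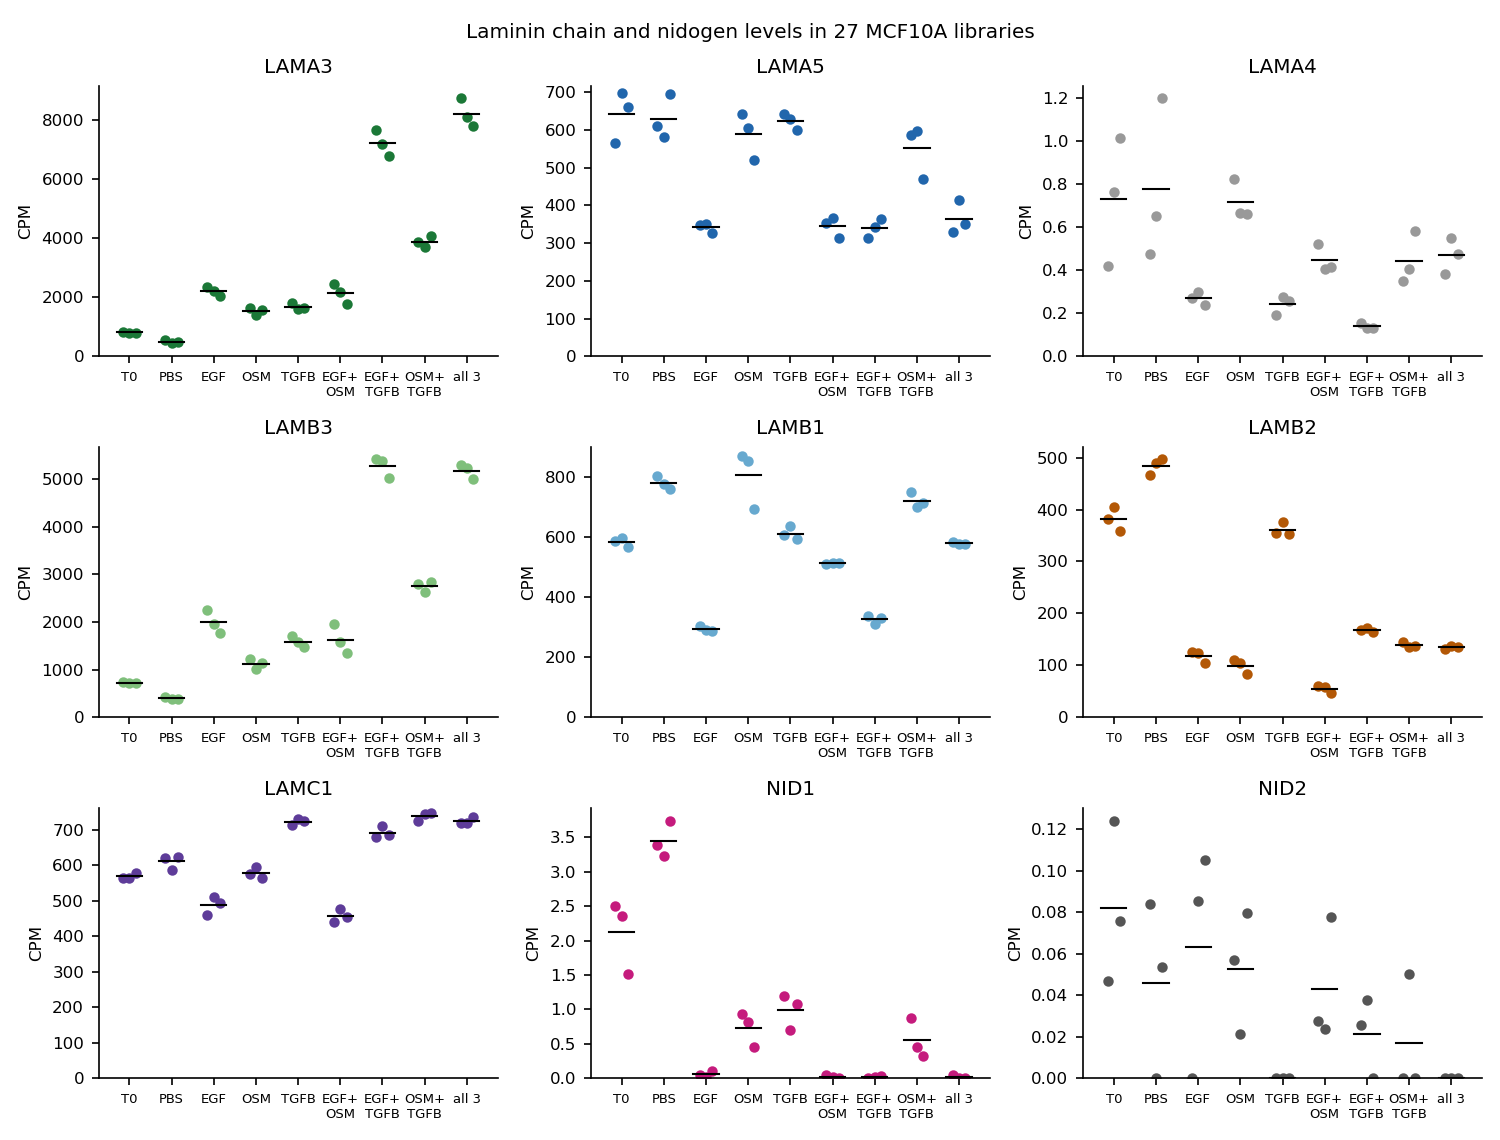
Level of each laminin chain and nidogen gene (vertical axis, CPM, linear from 0, a different scale in each panel) in the 9 groups (horizontal axis). Each point is a library and each bar the mean of 3. LAMA3 and LAMB3 are highest in EGF+TGFB and in the group with all 3 ligands, whereas LAMB2 and NID1 are highest in PBS.

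LAMA3 encodes the α chain of the anchoring laminin and spans chromosome 18, 23689453 to 23956222, on the plus strand of GRCh38 (GENCODE v44). Its level was 547, 460 and 495 CPM in the PBS libraries and 838, 781 and 805 CPM at T0. It was 1628, 1387 and 1552 CPM with OSM, 1807, 1605 and 1644 CPM with TGFB, and 2351, 2221 and 2050 CPM with EGF. All single-ligand libraries therefore lay above all PBS and T0 libraries, and the OSM and TGFB groups overlapped. EGF+OSM gave 2443, 2174 and 1783 CPM, a group that overlapped EGF alone and, in its lowest library, TGFB alone. OSM+TGFB gave 3860, 3692 and 4080 CPM, EGF+TGFB 7671, 7174 and 6762 CPM, and all 3 ligands 8732, 8098 and 7789 CPM. The last 3 groups stood in that order without overlap.

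Against PBS, the log2 fold change of LAMA3 was 2.16 ± 0.09 (SE, n = 3 per group) with EGF, 1.76 ± 0.09 with OSM and 1.82 ± 0.09 with TGFB. It reached 4.06 ± 0.10 with EGF+TGFB, a 16.7-fold rise (adjusted p = 3.87e-21; edgeR's quasi-likelihood F test, p-values adjusted by Benjamini and Hochberg's method over all tested genes). All 3 ligands gave a 20.5-fold rise (adjusted p = 8.08e-22). LAMA3 fell from T0 to PBS by 0.70 ± 0.09 on the log2 scale (adjusted p = 7.99e-07), so PBS cells held less LAMA3 RNA than cells at the time of ligand addition.

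LAMB3, the β chain that joins LAMA3, spans chromosome 1, 209614870 to 209652425, on the minus strand. It followed the same order of groups except at the top. The PBS libraries held 426, 385 and 383 CPM and the T0 libraries 735.5, 711.5 and 723 CPM. OSM gave 1214, 1019 and 1145 CPM, TGFB 1704, 1584 and 1474 CPM, EGF 2260, 1955 and 1760 CPM, and EGF+OSM 1948, 1588 and 1345 CPM. Here TGFB, EGF+OSM and EGF overlapped in turn, and OSM lay below these 3 groups. OSM+TGFB gave 2804, 2633 and 2845 CPM, EGF+TGFB 5418, 5369 and 5015 CPM, and all 3 ligands 5282, 5230 and 5004 CPM, the last 2 groups overlapping. The largest LAMB3 changes against PBS were 15.3-fold with EGF+TGFB (log2 3.94 ± 0.11, SE) and 16.2-fold with all 3 ligands (log2 4.02 ± 0.11), with adjusted p-values of 6.52e-20 and 2.77e-20 by edgeR's quasi-likelihood test. From T0 to PBS it fell by 0.87 ± 0.09 on the log2 scale (adjusted p = 1.53e-07).

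Over the 9 group means of log2 CPM, LAMA3 and LAMB3 had a Pearson correlation of 0.994. It is a description over 9 points that share libraries within each group. LAMB3 had 79.6 ± 3.62 counts per 100 LAMA3 counts in PBS (SD, n = 3), 94.2 ± 4.52 with TGFB, the highest group, and 63.1 ± 2.27 with all 3 ligands, the lowest. Per kilobase of merged exons the same ratio was 197 to 294 per 100 in group means.

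Promoter sequence is shown for LAMA3 and LAMB3 because they moved together. It is shown for LAMA5 and LAMC1, an α and a γ chain of the same cells, because they followed LAMA3 less closely. Over the 9 group means, LAMA5 had a Pearson correlation with LAMA3 of -0.433 and LAMC1 of 0.63. RefSeq's table (GRCh38.p14) held windows of 300 bases, 250 before and 50 after a start, for all 9 genes, with 3 starts for LAMB3. The LAMA3 start in the table, at 23873020, lies inside the span given above. The counts sum over transcripts and do not separate those that begin there. Each sequence runs 5′ to 3′ from 150 bases before the start and stops before any base annotated as exon. Capitals mark matches to TGANTCA, the AP-1 motif, where N is any base. The motif was searched on both strands.
LAMA3, chr18:23872870-23873019, plus strand: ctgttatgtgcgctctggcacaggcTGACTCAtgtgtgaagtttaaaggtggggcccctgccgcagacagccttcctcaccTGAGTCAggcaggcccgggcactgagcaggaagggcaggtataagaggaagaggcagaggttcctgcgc
LAMB3, chr1:209651395-209651524, minus strand: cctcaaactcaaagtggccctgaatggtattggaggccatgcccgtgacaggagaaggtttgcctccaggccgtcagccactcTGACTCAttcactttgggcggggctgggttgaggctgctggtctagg
LAMA5, chr20:62367313-62367462, minus strand: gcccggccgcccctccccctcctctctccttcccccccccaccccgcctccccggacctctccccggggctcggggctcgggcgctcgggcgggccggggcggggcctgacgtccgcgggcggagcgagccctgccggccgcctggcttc
LAMC1, chr1:183023270-183023419, plus strand: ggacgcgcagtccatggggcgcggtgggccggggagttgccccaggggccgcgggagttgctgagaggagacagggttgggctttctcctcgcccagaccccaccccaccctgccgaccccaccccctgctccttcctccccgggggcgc
The LAMA3 window held matches beginning 125 and 69 bases before the start. The LAMB3 window at the start 209651374 held a match 67 bases before it, and the other 2 LAMB3 windows held none. The LAMB3 sequence printed is thus from the window with the match. The other 2 starts, at 209652329 and 209652425, are not printed, and 209652425 is where the LAMB3 span given above begins on the minus strand. None of the windows of LAMA4, LAMA5, LAMB1, LAMB2, LAMC1, NID1 and NID2 held these letters, and 7.71% of all 35116 windows did. In the part of the window from 100 bases before to 50 after the start, which leaves out the LAMA3 match at 125, the count was 1 for LAMA3 and 1 for LAMB3, and 3.95% of all windows held a match there. Of the other motifs searched, the STAT motif TTCNNNGAA matched in LAMB2 alone, 49 bases before its start (7.66% of all windows). The SMAD motif CAGAC matched in LAMA3, LAMA4, LAMA5, LAMB2 and LAMC1 (45.3% of all windows). These matches are descriptions of the letters in these windows.

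LAMA5 is the α chain of the common epithelial laminins and lies on chromosome 20, 62307955 to 62367312, minus strand. Its libraries split by EGF. The 12 libraries that received EGF held 313 to 414 CPM and the other 15 held 469 to 697 CPM, without overlap. PBS gave 609, 581 and 694.5 CPM, and EGF 348.5, 352 and 327 CPM, a fall of 0.86 ± 0.10 on the log2 scale (SE, adjusted p = 4.67e-08, edgeR). LAMA5 was 1.82-fold lower than in PBS with EGF, 1.70-fold with EGF+OSM, 1.60-fold with EGF+TGFB and 1.38-fold with all 3 ligands. Its log2 fold change was 0.07 ± 0.10 with OSM, 0.05 ± 0.10 with TGFB and 0.13 ± 0.10 with OSM+TGFB, none called. Without the TMM factors these LAMA5 values were -0.09, -0.01 and -0.19.

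LAMA4, an α chain of vessels and muscle on chromosome 6, 112107931 to 112254939, minus strand, had 4 to 45 counts in a library. PBS gave 17, 28 and 45 counts, and EGF+TGFB 6, 7 and 4. Those groups did not overlap, and LAMA4 was called lower with EGF+TGFB (log2 -2.24 ± 0.39, SE, adjusted p = 1.39e-05, edgeR), with EGF (log2 -1.50 ± 0.35) and with TGFB (log2 -1.60 ± 0.37). At pooled levels of 0.14 to 0.77 CPM it was a trace transcript beside LAMA3 and LAMA5.

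**Figure D2:**
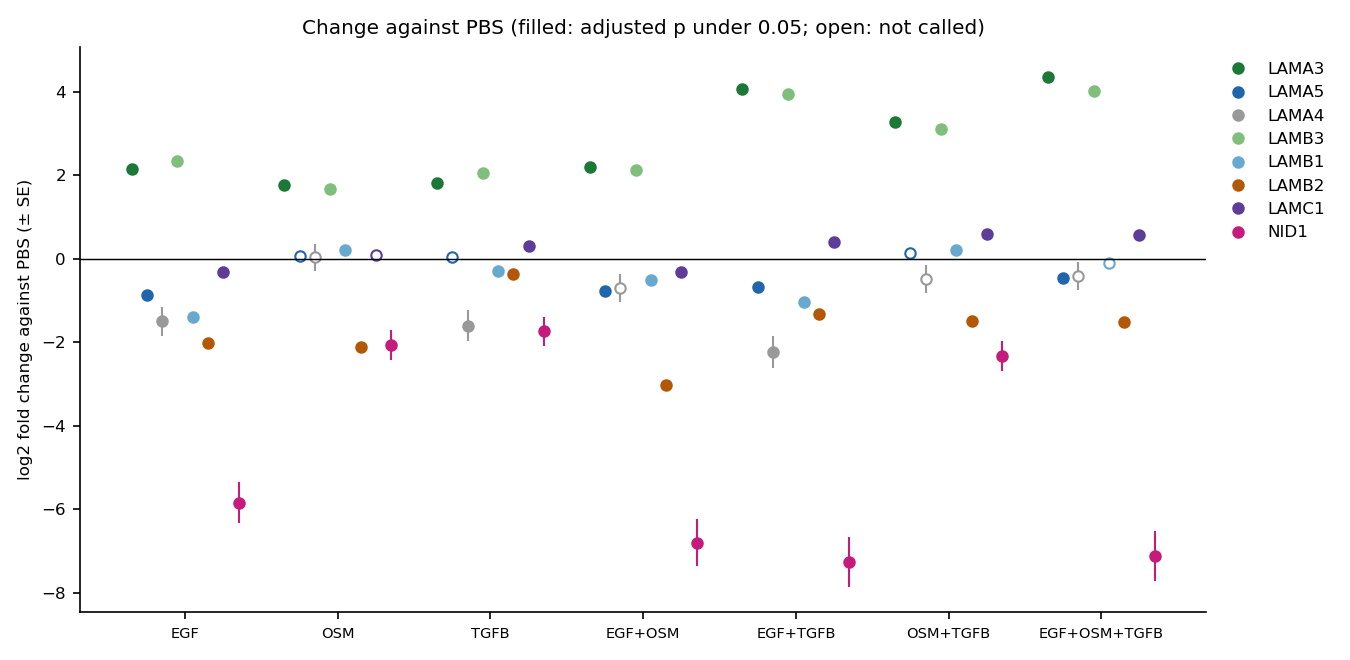
Log2 fold change against PBS (vertical axis, points, with SE as bars) of the 8 tested genes in the 7 ligand groups (horizontal axis), from edgeR's fit over 27 libraries. Filled points were called at an adjusted p under 0.05. LAMA3 and LAMB3 lie above 0 in every group and LAMB2 and NID1 below 0 in every group.

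LAMB1 and LAMB2, the β chains that join LAMC1, both fell with EGF and differed in their change with OSM. LAMB1 (chromosome 7, 107923799 to 108003213, minus strand) held 803, 775 and 758 CPM in PBS and 303, 289 and 288.5 CPM with EGF, its lowest group. That is a 2.63-fold fall (log2 -1.40 ± 0.06, SE, adjusted p = 1.23e-16, edgeR). EGF+TGFB, at 337, 311 and 331 CPM, was next to lowest, and EGF+OSM, at 510, 514 and 514.5 CPM, stood clear of both. TGFB alone gave 606, 635 and 592 CPM, a fall of 0.29 ± 0.06 on the log2 scale (adjusted p = 0.000207). OSM gave 870, 854 and 692 CPM, which overlapped PBS. It was called higher by 0.21 ± 0.06 on the log2 scale (adjusted p = 0.0023), but without the TMM factors the value was 0.05 with an adjusted p of 0.475. OSM+TGFB gave 748, 701 and 714 CPM, each below every PBS library in CPM, yet the fit called LAMB1 higher by 0.21 ± 0.06 (adjusted p = 0.0022). Without the factors that value turned to -0.11 (adjusted p = 0.0809), and by upper-quartile scaling it was 0.12 (adjusted p = 0.0636). With all 3 ligands LAMB1 held 584, 576 and 576.5 CPM, below every PBS library. The fitted log2 fold change of -0.11 ± 0.06 was not called (adjusted p = 0.0843), whereas without the factors it was -0.43 (adjusted p = 2.17e-07), by upper-quartile scaling -0.20 (adjusted p = 0.00205) and by DESeq2 -0.13 (adjusted p = 0.0348).

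LAMB2 (chromosome 3, 49121114 to 49133118, minus strand) fell with EGF and with OSM to a like degree. PBS held 466, 489 and 498 CPM, EGF 127, 124 and 105.5 CPM and OSM 110, 105 and 83.9 CPM. The EGF and OSM groups overlapped, and both lay below all PBS libraries. Against PBS LAMB2 was 4.04-fold lower with EGF (log2 -2.02 ± 0.09, SE, adjusted p = 5.9e-16, edgeR) and 4.35-fold lower with OSM (log2 -2.12 ± 0.09, adjusted p = 2e-16). EGF+OSM gave the lowest group, 60.2, 57.8 and 47.1 CPM, which is 8.20-fold below PBS. TGFB alone gave 355, 376 and 354 CPM, a fall of 0.36 ± 0.08 on the log2 scale. EGF+TGFB gave 168, 171 and 165 CPM, OSM+TGFB 144.5, 135 and 137.5 CPM, and all 3 ligands 131, 138 and 135 CPM, all above the EGF+OSM libraries. LAMB2 rose from T0 to PBS by 0.34 ± 0.08 on the log2 scale (adjusted p = 0.0022).

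LAMC1, the γ chain that joins LAMB1 and LAMB2 and carries the nidogen-binding site, lies on chromosome 1, 183023420 to 183145592, plus strand. Its group means spanned 0.91 on the log2 scale, the least of the 8 tested members. PBS held 621, 587 and 622 CPM, EGF 460, 511 and 494 CPM and EGF+OSM 439, 476 and 454 CPM. The EGF and EGF+OSM groups lay below PBS and overlapped each other, with log2 fold changes of -0.31 ± 0.05 (SE, adjusted p = 2.06e-06, edgeR) and -0.32 ± 0.05 (adjusted p = 1.07e-06). OSM, at 576, 595 and 564 CPM, was not called (log2 0.08 ± 0.05, and -0.08 without the TMM factors). TGFB gave 713, 730 and 724 CPM, EGF+TGFB 678, 710.5 and 685 CPM, OSM+TGFB 723, 743 and 745 CPM, and all 3 ligands 719, 719 and 735 CPM. Every library with TGFB was above every library without it. The log2 rises against PBS in these 4 groups were 0.31, 0.39, 0.59 and 0.57, each with an SE of 0.05, and each was also called without the TMM factors.

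NID1, a nidogen on chromosome 1, 235975830 to 236065109, minus strand, had 121, 139 and 140 counts in the PBS libraries and 107, 114 and 60 at T0. EGF left 2, 1 and 4 counts, EGF+OSM 2, 1 and 0, EGF+TGFB 0, 1 and 1, and all 3 ligands 2, 0 and 0. Without EGF it was partly kept: OSM gave 33, 38 and 17 counts, TGFB 43, 28 and 38, and OSM+TGFB 35, 18 and 13. All PBS libraries lay above all ligand libraries, and the groups with and without EGF did not overlap. Summed over 3 libraries, NID1 was at 3.44 CPM in PBS (exact 95% Poisson interval 3.11 to 3.795) and at 0.0558 CPM with EGF (0.0224 to 0.115). The ratio of PBS to EGF was 61.6 (95% interval 29.6 to 154, counting error only), of PBS to OSM 4.68 (3.7 to 5.96) and of PBS to TGFB 3.51 (2.83 to 4.38). Adjusted p-values were 7.06e-11, 1.29e-05 and 0.00024 by edgeR's quasi-likelihood test. With 3 or fewer counts in a group, the ratio of PBS to EGF+OSM was 134 (45.6 to 653), to EGF+TGFB 209 (57.6 to 1740) and to all 3 ligands 199 (54.8 to 1650).

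Beside NID1, summed markers of 3 other cell types were lower in the EGF groups than in PBS. The fibroblast markers PDGFRA, DCN, LUM and COL3A1 held 7.64 to 14.3 CPM in the 4 EGF groups and 63.5 to 107 CPM in the other 5. DCN made up nearly all of it, since PDGFRA never passed 9 counts, LUM 14 and COL3A1 2 in a library. With TGFB alone, where NID1 fell, they held 99.1 to 103 CPM against 93.3 to 107 CPM in PBS. The endothelial markers held 0.699 to 1.36 CPM in the EGF groups and 2.94 to 5.02 CPM in PBS. The endothelial marker VWF reached 3.85 CPM in a PBS library, against a median of 0.101 CPM over all libraries. The luminal markers ESR1, PGR and GATA3 held 9.66 to 15.9 CPM in the EGF groups and 28.9 to 30.8 CPM in PBS. GATA3 made up most of that sum, since PGR never passed 1 count and ESR1 never passed 3.30 CPM in a library. With OSM+TGFB, which lacks EGF, the endothelial markers held 1.27 to 1.29 CPM and the luminal markers 12.9 to 15.5 CPM. With OSM alone they held 1.59 to 2.32 and 16.7 to 22.1 CPM, and with TGFB alone 2.21 to 2.46 and 28.5 to 30.9 CPM. The leukocyte markers PTPRC, CD68 and CD3E held 29.4 to 30.9 CPM in PBS. They held 22.5 to 25.2 CPM with EGF and 25.85 to 28.8 CPM with EGF+TGFB. With EGF+OSM they held 30.8 to 33.4 CPM and with all 3 ligands 39.2 to 42.6 CPM. The part of other cell types in the NID1 result was not tested. NID2 (chromosome 14, 52004809 to 52069059, minus strand) had 0 to 6 counts in a library and totals of 11 in T0, 5 in PBS and 8 with EGF. With TGFB and with all 3 ligands it had 0 counts over 3 libraries, and a limit of 3 counts over the group would be 0.027 and 0.0259 CPM. At T0 it was at 0.0842 CPM (exact 95% Poisson interval 0.0421 to 0.151), and in PBS at 0.043 CPM (0.014 to 0.1004). NID2 was not tested, and these intervals cover counting error only.

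The counts of called members were read against the share of all 15575 tested genes. With EGF, 2 of 8 were higher and 6 lower, where 34.9% of all genes were higher and 38.6% lower, and the members' median log2 fold change was -1.13 against -0.07 for all genes. With OSM, 3 were higher (33.5% of all genes) and 2 lower (29.8%), with a median of 0.07 against 0.00. With TGFB, 3 were higher (19.9%) and 4 lower (15.8%), with a median of -0.12 against -0.01. EGF+OSM had 2 higher (37.6%) and 5 lower (39.6%), EGF+TGFB 3 higher (36.2%) and 5 lower (37.5%), OSM+TGFB 4 higher (34.2%) and 2 lower (31.8%), and all 3 ligands 3 higher (37.7%) and 3 lower (36.7%). PBS against T0 had 2 higher (16.2%) and 2 lower (18.9%). The members' medians in these 4 groups were -0.60, -0.86, 0.17 and -0.26, against -0.05, -0.04, 0.00 and 0 for all genes. Calls were common among all genes, so the number of members called is read beside these shares and not alone. The comparisons against PBS share the PBS libraries.

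Per kilobase of merged exons, which allows levels of different genes to be set side by side, the α chain RNA went from mixed to mostly LAMA3. LAMA3 made up 43.99 ± 2.87% (SD, n = 3) of LAMA3, LAMA4 and LAMA5 together in PBS and 55.45 ± 3.58% at T0. It made up 71.8 ± 2.69% with OSM, 72.7 ± 1.00% with TGFB and 86.4 ± 0.47% with EGF. EGF+TGFB gave 95.4 ± 0.60% and all 3 ligands 95.7 ± 0.62%, which overlapped. For the β chains, LAMB3 made up 43.2 ± 1.73% of LAMB1, LAMB2 and LAMB3 in PBS, 64.2 ± 1.27% at T0, 80.7 ± 2.56% with OSM, 92.8 ± 0.47% with EGF and 96.4 ± 0.13% with EGF+TGFB.

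These shares depend on the length that divides the counts. LAMB1 has 18592 bases of merged exons but a longest transcript of 6737. Per kilobase of the longest transcript, LAMB3 made up 31.5 ± 1.26% of the β chains in PBS and 94.0 ± 0.27% with EGF+TGFB. For the α chains, the same change gave 46.1 ± 2.89% in PBS and 95.8 ± 0.56% with EGF+TGFB. PBS had the lowest share and T0 the next lowest on both scales for both chains.

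**Figure D3:**
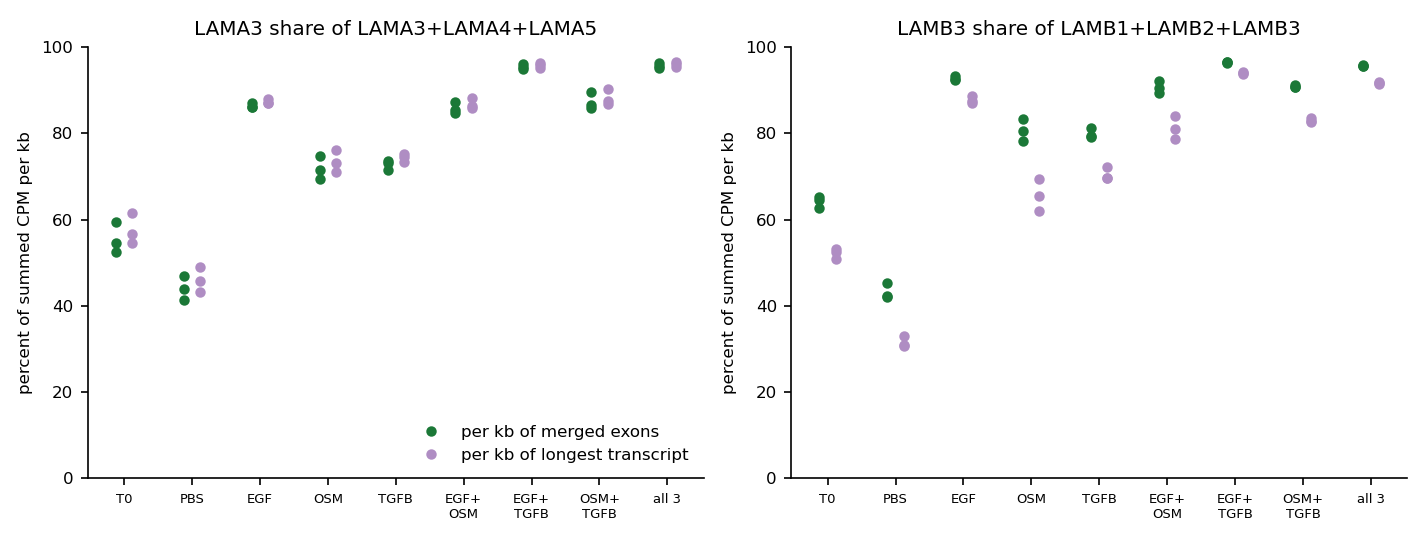
LAMA3 as a percent of the 3 α chain genes (left) and LAMB3 as a percent of the 3 β chain genes (right) by group (horizontal axis), from CPM per kilobase of merged exons (green) or of the longest transcript (purple). Each point is a library, and the shares are lowest in PBS and highest in EGF+TGFB and all 3 ligands.

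Within the LAMB1 and LAMB2 pair, the balance moved with OSM. LAMB2 made up 62.7 ± 1.47% of the pair in PBS, 61.6 ± 0.25% with TGFB and 52.2 ± 2.15% with EGF, per kilobase of merged exons. It made up 25.1 ± 0.42% with OSM, 22.5 ± 2.30% with EGF+OSM, 34.3 ± 0.07% with OSM+TGFB and 38.65 ± 0.78% with all 3 ligands. The 4 groups with OSM lay below the 5 without it. Per kilobase of the longest transcript LAMB2 was 42.4 ± 1.53% of the pair in PBS and 12.8 ± 0.25% with OSM.

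Comparisons of a ligand added to another ligand asked what each adds when another is present. EGF changed 7 of the 8 genes when added to OSM (61.7% of all genes were called), 6 when added to TGFB (69.4%) and 5 when added to OSM+TGFB (52.2%). On TGFB, EGF raised LAMA3 4.74-fold (log2 2.24 ± 0.09, SE) and LAMB3 3.68-fold (log2 1.88 ± 0.10), and on OSM it raised them 1.35-fold (log2 0.43 ± 0.09) and 1.39-fold (log2 0.48 ± 0.09). LAMA5 fell with EGF on each background, by 0.83, 0.73 and 0.59 on the log2 scale (SE 0.10 each), and so did NID1.

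OSM changed 2 of 8 when added to EGF (34.9%), 6 when added to TGFB (56.6%) and 4 when added to EGF+TGFB (26.4%). On EGF, OSM left LAMA3 at a log2 change of 0.04 ± 0.09 (SE) and LAMC1 at -0.01 ± 0.05, neither called, and without the TMM factors LAMA3 was at -0.05. There it raised LAMB1 1.86-fold (log2 0.89 ± 0.06, adjusted p = 2.56e-12, edgeR) and lowered LAMB2 2.03-fold (log2 -1.02 ± 0.09, adjusted p = 9.1e-10). On TGFB, OSM raised LAMA3 2.75-fold (log2 1.46 ± 0.09) and LAMB3 2.08-fold (log2 1.05 ± 0.09). LAMB1 rose with OSM on EGF+TGFB as well, 1.91-fold (log2 0.94 ± 0.06), and that rise was the largest of an abundant member there.

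TGFB changed 5 of 8 when added to EGF (54.6%), 4 when added to OSM (51.6%) and 6 when added to EGF+OSM (61.1%). Each of those calls was a rise, whereas calls over all genes went both ways. Of all 15575 tested genes, 4199 were higher and 4312 lower for TGFB added to EGF. The numbers were 4060 and 3982 for TGFB added to OSM, and 4919 and 4599 for TGFB added to EGF+OSM. LAMA3 rose 3.74-fold on EGF, 2.85-fold on OSM and 4.475-fold on EGF+OSM, and LAMB3 3.04-fold, 2.74-fold and 3.70-fold. LAMC1 rose 1.62-fold, 1.42-fold and 1.85-fold. LAMB2, which TGFB alone lowered, rose with TGFB 1.62-fold on EGF (log2 0.70 ± 0.08, SE), 1.56-fold on OSM (log2 0.64 ± 0.09) and 2.85-fold on EGF+OSM (log2 1.51 ± 0.09). Over all genes, leaving out the TMM factors took the share of calls that were higher from 48.8% to 38% for EGF added to TGFB, and for OSM added to EGF from 51% to 28.4%, to TGFB from 53.3% to 25.5% and to EGF+TGFB from 51.5% to 25%. For TGFB added to EGF it went from 49.3% to 28%, to OSM from 50.5% to 30.4% and to EGF+OSM from 51.7% to 33.1%.

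The departure of a pair is its log2 fold change against PBS minus the sum of those of its single ligands. It is 0 when these log2 fold changes add, which is when the fold changes multiply, and it does not compare sums of CPM. With EGF+OSM, LAMA3 fell short of the sum by 1.72 ± 0.12 on the log2 scale (SE, adjusted p = 5.14e-11, edgeR) and LAMB3 by 1.86 ± 0.13 (adjusted p = 1.02e-10), so that the pair stayed near the level of EGF alone. LAMB1 and LAMB2 lay above the sum, by 0.69 ± 0.08 and 1.099 ± 0.12. The 2 members called higher compare with 15.7% of all genes and the 2 called lower with 23.0%.

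With EGF+TGFB, LAMA3 came to the sum within 0.09 ± 0.12 (adjusted p = 0.636, and -0.045 without the TMM factors), and LAMB3 fell short by 0.46 ± 0.13 (adjusted p = 0.0108, which was 0.0636 without EGF+TGFB replicate 3 and 0.0549 with no filter on low counts). LAMB1, LAMB2 and LAMC1 lay above the sum by 0.64 ± 0.08, 1.06 ± 0.12 and 0.39 ± 0.07. Thus 3 were called higher (13.3% of all genes) and 1 lower (16.5%). With OSM+TGFB, 4 were called higher (9.61%) and 1 lower (13.7%). LAMB2 lay above the sum by 1.00 ± 0.12 and LAMB3 below it by 0.61 ± 0.13. LAMB1, at 0.29 ± 0.08, was not called without the TMM factors (0.19, adjusted p = 0.0825). LAMC1, at 0.20 ± 0.07, lost its call in 6 of 12 fits that each left out 1 library, and NID1, at 1.49 ± 0.52, in 7 of 12. LAMB1 and LAMB2 thus had called departures above the sum in all 3 pairs, and LAMB3 had called departures under it in all 3. Without the TMM factors, the share of called departures that were higher over all genes went from 40.6% to 51.8% for EGF+OSM, from 44.7% to 21.6% for EGF+TGFB and from 41.2% to 22.5% for OSM+TGFB.

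**Figure D4:**
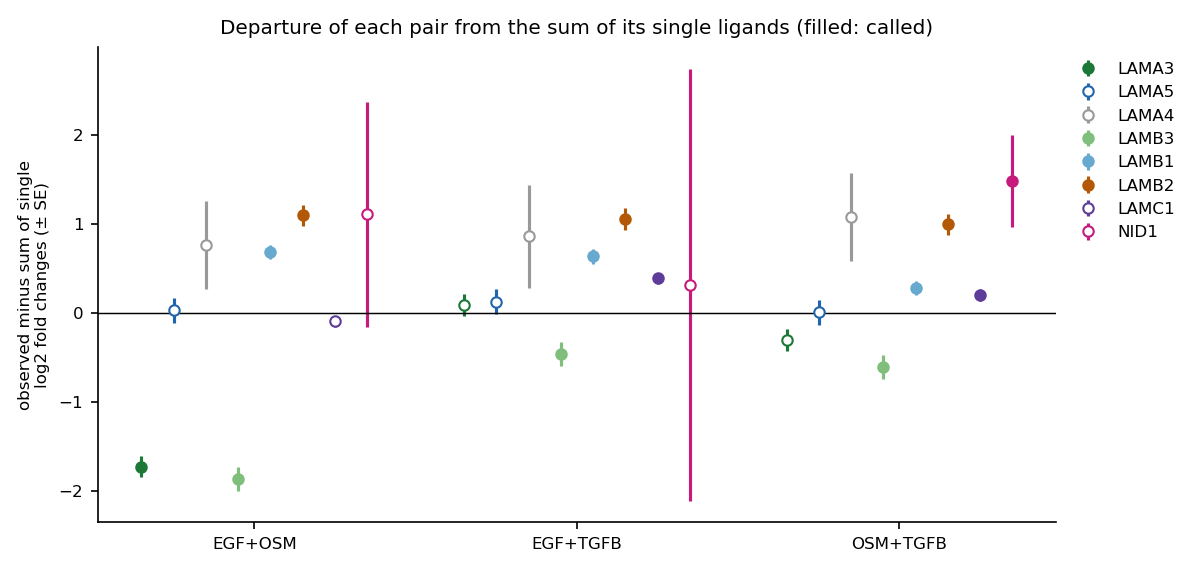
Departure of each pair of ligands from the sum of its single ligands (vertical axis, difference of log2 fold changes, points, with SE as bars) for the 8 tested genes, by pair (horizontal axis). Filled points were called. LAMA3 and LAMB3 lie far below 0 for EGF+OSM, and LAMB2 lies between 1.00 and 1.099 for the 3 pairs.

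The other laminin chains, receptors and basement membrane genes were taken from lists, 39 genes of which 36 were tested. LAMA1, an embryonic α chain, was at 3.52 ± 0.73 CPM in PBS and 14.9 ± 0.92 CPM with EGF and was called higher in all 7 groups. LAMA2, the muscle α chain, rose in the 4 groups with EGF, by 1.37 to 2.07 on the log2 scale, from 0.643 ± 0.10 CPM in PBS. LAMB4 had 2 to 7 counts in a PBS library and 57 to 75 with OSM. LAMC3 had 0 to 7 counts and was not tested.

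Of the 11 laminin receptor and hemidesmosome genes, 6 rose and 4 fell with EGF, 7 rose and 1 fell with OSM, 7 rose and 2 fell with TGFB, and 7 rose and 4 fell with EGF+TGFB. Of all tested genes, 34.9% were higher and 38.6% lower with EGF, 33.5% and 29.8% with OSM, 19.9% and 15.8% with TGFB, and 36.2% and 37.5% with EGF+TGFB. The list's median log2 fold changes were 0.20, 0.43, 0.31 and 1.00 in these groups, against -0.07, 0.00, -0.01 and -0.04 for all genes. ITGB4, the β chain of the hemidesmosome integrin, was at 1092 ± 53 CPM in PBS and rose most with OSM+TGFB, 4.31-fold (log2 2.11 ± 0.08, SE), to 3774 ± 186 CPM. The ITGB4 libraries with OSM+TGFB, at 3591 to 3963 CPM, lay above those with all 3 ligands, at 2680 to 3121 CPM, the reverse of LAMA3. PLEC, the plectin that ties hemidesmosomes to keratin, rose 2.59-fold with all 3 ligands, and ITGB1, the common integrin β chain, 3.85-fold.

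Of 14 tested components of the rest of the basement membrane, 5 rose and 6 fell with EGF, 3 rose and 7 fell with OSM, 10 rose and 0 fell with TGFB, and 6 rose and 5 fell with EGF+TGFB. The counts with EGF and EGF+TGFB were near the shares of all genes (34.9% higher and 38.6% lower, and 36.2% and 37.5%), and the 10 with TGFB compare with 19.9% of all genes. With OSM, 33.5% of all genes were higher and 29.8% lower. With TGFB their median log2 fold change was 0.32 against -0.01 for all genes, and with EGF -0.33 against -0.07. COL4A2, a collagen IV chain, rose 27.9-fold with EGF+TGFB (log2 4.80 ± 0.11, SE), from 39.9 ± 5.99 to 959 ± 43.1 CPM. AGRN, the proteoglycan agrin, rose 2.23-fold there. FBLN1, fibulin, fell 2.68-fold with EGF and 4.65-fold with EGF+OSM, where LAMB2 was lowest too, and rose 1.23-fold with TGFB.

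Of 7 tested genes from a list of proteases linked to the cutting of laminin or nidogen, 6 rose and 0 fell with TGFB. With EGF, 2 rose and 3 fell, and with EGF+TGFB 6 rose and 1 fell. Of all genes, 19.9% were higher and 15.8% lower with TGFB, 34.9% and 38.6% with EGF, which the list's counts were near, and 36.2% and 37.5% with EGF+TGFB. The list's medians were 0.98, -0.10 and 1.02 in these groups, against -0.01, -0.07 and -0.04 for all genes. BMP1, which trims laminin chains, rose 1.97-fold with TGFB and 3.10-fold with OSM+TGFB and was not called with EGF (log2 -0.10 ± 0.07, SE). MMP14, a membrane-bound metalloproteinase, fell 1.30-fold with EGF and rose 2.79-fold with all 3 ligands. PLAU, urokinase, rose 11.9-fold with EGF+TGFB and 14.0-fold with all 3 ligands. PLG, plasminogen, also listed, was at a mean of 0.0865 CPM and was not tested.

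The genes whose 9 group means of log2 CPM were most like a member's were sought among 9381 tested genes that spanned at least 1 log2 unit. For LAMA3 these were CHST11 (r = 0.996) and MAP1B (0.995), and for LAMB3 MAP1B (0.991) and CHST11 (0.989), so both genes were named for both chains. For LAMB2 they were KIAA0513 (0.989), PLCD1 (0.9885) and GPR1 (0.9875), for LAMB1 IL1R1 (0.982), MUC1 (0.982) and CRY2 (0.9775), and for NID1 IRF2BPL (0.997), GSTA4 (0.996) and TTC39B (0.991). For LAMA4, at trace level, the closest named genes were TIAF1 (0.930) and VMO1 (0.918), after a gene listed by identifier alone. These are descriptions over 9 points, with no test.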

How the data were processed

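The measurements were RNA-seq counts of polyadenylated RNA from 27 MCF10A libraries, made with a stranded kit per the labels' protocols. The deposited table holds estimated counts per gene as whole numbers, and the submitters' processing notes name Trim Galore 0.4.3, cutadapt 1.10, kallisto 0.46.2 and GRCh38.p5; how counts were rounded is not given in the sources used here. Rows sharing a symbol were summed (40487 rows to 36536 genes). Genes passing filterByExpr by group (15575) were fitted with edgeR 4.0.16 in R 4.3.3, with TMM scaling, a mean per group over 27 libraries and the quasi-likelihood test. P-values were adjusted over all tested genes, with a threshold of 0.05. The SE of a log2 fold change is its absolute value divided by the square root of that test's F statistic. It therefore draws on the spread in all 27 libraries and not only in the groups compared. The script was tested on simulated data for EGF against PBS alone, with a small set of genes changed equally up and down. That setting does not probe the scaling where many genes change.

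The 9 members and the lists were chosen with earlier results of these data known. Named beside the members were each laminin chain, the 3 genes of each list with the highest mean CPM, and the 3 genes most like each member that spanned at least 1 log2 unit; an item that this rule names is not reported here. Groups followed the sample titles. Alternatives were upper-quartile scaling, DESeq2 1.42.0, no filter, unsummed rows, a replicate block, each library left out, other lengths and a shorter promoter window; scaling by library totals alone was added after seeing the data. Intervals cover counting error only. Positions are from GENCODE v44 on GRCh38.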

Additional observations from a re-analysis of the deposited data

Results flagged for a closer look

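A departure from the sum of the single ligands, tested in the fit over 27 libraries, was called for 13 combinations of a gene and a pair of ligands. For EGF+OSM the departures were -1.72 for LAMA3, -1.86 for LAMB3, 0.69 for LAMB1 and 1.1 for LAMB2, on the log2 scale. For EGF+TGFB they were -0.46 for LAMB3, 0.64 for LAMB1, 1.06 for LAMB2 and 0.39 for LAMC1. For OSM+TGFB they were -0.61 for LAMB3, 0.29 for LAMB1, 1 for LAMB2, 0.2 for LAMC1 and 1.49 for NID1. Each was flagged because the log2 fold change with 1 ligand differed according to whether the other was present. The 3 departures share the PBS libraries, and each pair of them shares a single-ligand group.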

How the results depend on the processing

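The numbers of members called in 20 comparisons stayed within 1.5 times of the reported count under upper-quartile scaling, DESeq2, no filter on low counts, rows as deposited, a replicate block and library totals alone. Leaving out 1 library changed only the 5 calls for the OSM+TGFB departure by more than that, over a range of 3 to 6, with 3 without OSM replicate 3 and without PBS replicate 3. Replicate numbers were not taken as pairing the samples in the main fit. Deviations of same-numbered libraries correlated at 0.036, 0.044 and 0.051 on average, and those of different numbers at -0.022. Yet 26 of 27 libraries correlated best with their own number, so the main p-values leave out something that same-numbered libraries share. With a replicate block, calls over all tested genes rose in every comparison, from 5432 to 6284 for OSM added to EGF. With the replicate block 3 more values were called: LAMA3 for the OSM+TGFB departure (-0.303), LAMB2 for OSM added to EGF+TGFB (-0.209) and LAMB3 for OSM added to EGF (-0.206).

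Values that changed sign were log2 fold changes that had not been called, with LAMB1 for OSM+TGFB against PBS as the exception. With upper-quartile scaling LAMA4 was at -0.02 for OSM against PBS. For TGFB added to OSM, LAMB1 was at 0.001 with DESeq2, with no filter and with rows as deposited, and at 0.002 with the replicate block. With library totals alone, LAMA3 was at -0.045 for the EGF+TGFB departure and -0.049 for OSM added to EGF, and LAMA4 at -0.117 for OSM against PBS. LAMA5 was there at -0.093, -0.011 and -0.189 for OSM, TGFB and OSM+TGFB against PBS, -0.179 for OSM added to TGFB, -0.013 and -0.097 for TGFB added to EGF and to OSM, and -0.002 and -0.086 for the EGF+TGFB and OSM+TGFB departures. LAMB1 was at -0.112 for OSM+TGFB against PBS, LAMB3 at -0.026 for OSM added to EGF+TGFB, and LAMC1 at -0.063 for EGF added to TGFB and -0.077 for OSM against PBS. Calls lost there were LAMA3 for OSM added to EGF+TGFB, LAMA5 for TGFB added to EGF+OSM, LAMB1 for OSM against PBS and the OSM+TGFB departure, and LAMC1 for OSM added to TGFB and to EGF+TGFB and the OSM+TGFB departure. Calls gained were LAMA3 for the OSM+TGFB departure, LAMA4 for EGF+OSM, OSM+TGFB and all 3 ligands against PBS, LAMB1 for all 3 ligands against PBS and TGFB added to OSM, LAMB2 for OSM added to EGF+TGFB, LAMB3 for OSM added to EGF, and LAMC1 for PBS against T0. The calls listed here as lost and gained are of values that kept their sign. LAMB1 for OSM+TGFB against PBS, which changed sign, also lost its call. The cause was not tested.

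Leaving out 1 library at a time gave ranges across 0 for these values. LAMA3 for OSM added to EGF ran from -0.074 to 0.155. LAMA4 ran from -0.091 to 0.31 for EGF added to OSM+TGFB, and against PBS from -0.677 to 0.034 for all 3 ligands and -0.219 to 0.492 for OSM, with -0.372 to 0.383 for PBS against T0. LAMA5 ran from -0.05 to 0.096 and -0.072 to 0.108 for the EGF+OSM and OSM+TGFB departures, -0.12 to 0.03 for PBS against T0 and -0.02 to 0.16 for TGFB added to OSM. LAMB1 for TGFB added to OSM ran from -0.098 to 0.057 and LAMC1 for OSM added to EGF from -0.067 to 0.035. NID1 ran from -0.109 to 0.98 for the EGF+TGFB departure, -2.717 to 0.622 for OSM added to EGF+TGFB, -3.179 to 0.574 for TGFB added to EGF+OSM and -0.737 to 0.006 for TGFB added to OSM.

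Per kilobase of the longest transcript, 11 of 18 shares moved by more than 1 SD. Precision is limited most for NID1, NID2 and LAMA4, with few counts in a library.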
